A study of Mus musculus with 12 samples.

Results

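Femur-derived preosteoclasts from ligated mice were compared with those from unligated mice, to ask what a ligature around the molars leaves in osteoclast precursors of a bone far from the mouth. The members are the 8 femur libraries among the 12 libraries of the study, 4 from ligated and 4 from unligated mice, chosen by the site and the ligature named in the sample labels. Each group of 4 holds 2 LSD1WT and 2 LSD1cKO libraries, numbered 1 and 2 within genotype and ligature. The other 4 libraries come from the mandible, all of ligated mice.

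All mice were female. The series text gives their age as 2 months, and the study's sequencing methods give it as 3 months. LSD1cKO mice carry floxed Lsd1, the gene Kdm1a, and a Cre driven by the LysM (Lyz2) promoter, which is active in myeloid cells and leaves Lsd1 intact elsewhere. LSD1WT are their wild-type controls. In ligated mice, silk sutures were left on the second maxillary molars of both sides for 7 days, and these mice shared cages with their unligated siblings. Marrow was flushed from the femur and grown for 2 days in M-CSF plus RANKL, and polyA RNA was then sequenced. The labels number the mice as ligated or unligated, so the 2 libraries that share a number and a genotype (called a pair here) come from different mice. What such a number marks is not given. Following the stated design, each pair was one block of the model. The labels name no litter, culture day or sequencing batch.

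RANKL drives marrow precursors of the monocyte lineage towards osteoclasts, the cells that resorb bone, and M-CSF keeps them alive and dividing. Immediate early genes are genes that cells transcribe within minutes of a stimulus without making new protein first. Many of them encode transcription factors (the AP-1, EGR and NR4A families) or phosphatases that switch the same signals off again. MHC class II genes encode the molecules with which monocyte-derived cells and dendritic cells show peptides to helper T cells, and their transcription is run by one master coactivator, CIITA.

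Total counts ran from 21375805 to 32526751 over the 8 libraries. Levels are given as CPM, counts scaled to the size of each library, and 3 counts corresponded to 0.0952 to 0.151 CPM. Kdm1a, the targeted gene, was at 60.1 to 68.7 CPM in the 4 LSD1WT libraries and at 15.3 to 19.9 CPM in the 4 LSD1cKO libraries, so genotype labels and counts go together. Between ligated and unligated libraries Kdm1a differed by -0.03 ± 0.13 (log2 fold change ± SE), far less than between the genotypes. Lyz2, whose promoter drives the Cre, was at 3026 to 34620 CPM. Mitochondrial transcripts made up 1.66% to 5.38% of counts.

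Both LSD1WT libraries numbered 2 stood apart from the other 6. Ctsk, the collagen-cutting protease of osteoclasts, was at 16.8 CPM in the unligated and 5.78 CPM in the ligated library numbered 2, against 2158 to 7733 CPM in the others. Summed over 20 osteoclast genes, these libraries had 1451 and 1200 CPM, against 14680 to 46080 CPM elsewhere. Osteoclast genes that define the labelled cell type were thus high in 6 of 8 libraries and far lower in 2. Values without this pair are given beside the main gene groups below. Within LSD1WT, the libraries numbered 1 and 2 differed by a median of 0.65 (unligated) and 0.73 (ligated) on the log2 CPM scale over all genes tested, and within LSD1cKO by 0.48 and 0.19. Between ligated and unligated libraries of a pair, that median was 0.21 and 0.39 for LSD1WT pairs 1 and 2, and 0.30 and 0.26 for LSD1cKO pairs 1 and 2.

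Over 14933 genes tested, no gene passed an adjusted p of 0.05 for ligature in edgeR's quasi-likelihood test with both genotypes in one fit. The smallest adjusted p in edgeR was 0.108, shared by Egr1 and Nr4a1, both higher after ligature. At an unadjusted p under 0.05 stood 685 genes (4.59%), of which 339 (2.27%) were higher and 346 (2.32%) lower. Higher in the ligated library of all 4 pairs were 877 genes (5.87%), and lower in all 4 were 599 (4.01%). In 58 genes (0.388%) all 4 ligated libraries lay above all 4 unligated ones, and in 27 (0.181%) they lay below. DESeq2, with the same design and genes, called 17 genes, each of them higher in ligated cultures. These were Egr1, Egr2, Egr3, Nr4a1, Btg2, Ier2, Dusp5, Il1b, Cd83, H2-Ab1, H2-Aa, H2-Eb1, Pla2g7, Rnd3, Zbtb20, Adgrf1 and the unnamed gene model 5830444B04Rik.

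**Figure D1:**
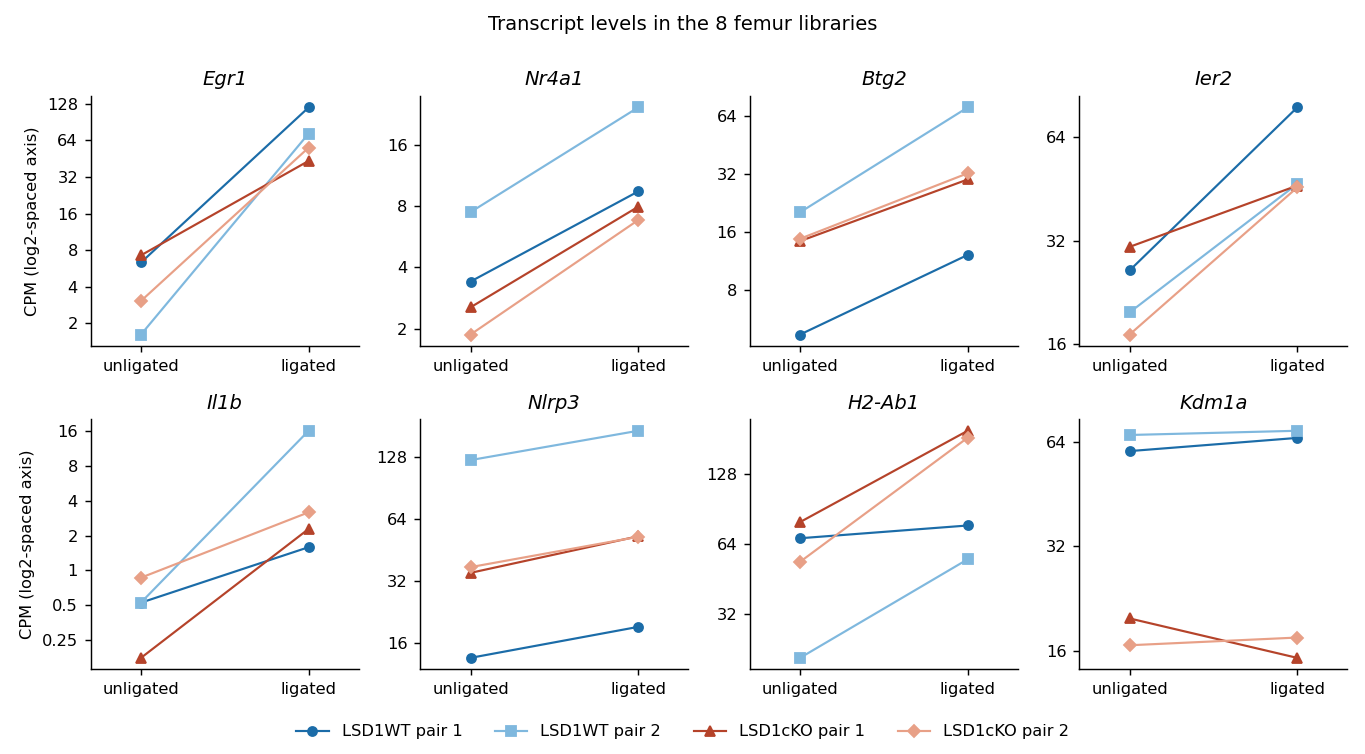
Levels of 8 transcripts in CPM, on an axis spaced by powers of 2, in unligated (left) and ligated (right) femur-derived preosteoclasts, with a line joining the 2 libraries of each pair. Egr1, Nr4a1, Btg2, Ier2, Il1b, Nlrp3 and H2-Ab1 were higher in the ligated library of all 4 pairs, while Kdm1a separated the genotypes and not the ligature groups.

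The 4 genes with the smallest p, Egr1, Nr4a1, Btg2 and Ier2, were immediate early genes, all higher after ligature. Egr1 encodes a zinc-finger transcription factor of the early response. Unligated LSD1WT cultures had 6.34 and 1.62 CPM, and unligated LSD1cKO cultures 7.26 and 3.06 CPM. With ligature LSD1WT had 119 and 72.7 CPM, and LSD1cKO 43.3 and 55.7 CPM. The lowest ligated library thus had several times the CPM of the highest unligated one, and both genotypes shared the pattern. The log2 fold change was 4.07 ± 0.42 (SE, 4 libraries a group), a fold of 16.8, with an edgeR adjusted p of 0.108. Without LSD1WT pair 2 it was 3.66 with an edgeR adjusted p of 0.0103, and without the unligated library of LSD1WT pair 1 it was 3.98 with an edgeR adjusted p of 0.0472. Leaving out the ligated library of pair 1 in its place, which removes the same pair, gave an edgeR adjusted p of 0.0511. Without the unligated or the ligated library of LSD1cKO pair 2 the log2 fold change was 4.04 or 4.02, with edgeR adjusted p of 0.999 and 0.998. Over 17 alternative settings the adjusted p of Egr1 ran from 7.90e-25 (DESeq2) to 1, and the log2 fold change from 3.66 to 4.60.

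Nr4a1, an orphan nuclear receptor induced early in myeloid cells, had 3.41 and 7.49 CPM in unligated LSD1WT, and 2.55 and 1.87 CPM in unligated LSD1cKO libraries. Ligated libraries had 9.46 and 24.5 CPM (LSD1WT), or 7.95 and 6.84 CPM (LSD1cKO). The groups overlapped, because LSD1WT pair 2 was high on both sides, but the step within a pair was alike in all 4, from 1.45 to 1.83 on the log2 scale. The log2 fold change was 1.67 ± 0.18 (edgeR adjusted p = 0.108), and 1.66 without LSD1WT pair 2.

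Btg2, an antiproliferative cofactor, was at 4.69 and 20.3 CPM in unligated LSD1WT and at 14.4 and 14.8 CPM in unligated LSD1cKO. Ligated cultures had 12.2 and 71.2 CPM in LSD1WT and 30.0 and 32.3 CPM in LSD1cKO. Here too the groups overlapped while every pair differed in one direction. The log2 fold change was 1.35 ± 0.17 (edgeR adjusted p = 0.227), and 1.19 without LSD1WT pair 2. Ier2, another early nuclear protein, was at 17.1 to 30.7 CPM in the 4 unligated and at 45.6 to 77.9 CPM in the 4 ligated libraries, with no overlap. Its log2 fold change was 1.21 ± 0.18 (edgeR adjusted p = 0.635).

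Among the 30 immediate early genes listed, all of which passed the filter on low counts, 12 were higher at an unadjusted p under 0.05 (2.27% of all genes) and 0 were lower (2.32% of all genes). These were Egr1, Egr2, Egr3, Nr4a1, Nr4a3, Btg2, Ier2, Dusp5, Dusp2, Klf2, Klf6 and Fos. Of the list, 16 were higher in all 4 pairs (5.87% of all genes). In 6 (Egr1, Egr2, Egr3, Ier2, Nr4a3 and Dusp5) all ligated libraries lay above all unligated ones (0.388% of all genes). Nr4a3 was close to the detection floor, at 0.072 to 0.349 CPM in unligated and 0.476 to 0.654 CPM in ligated libraries. The list had a median log2 fold change of 0.41 against 0.01 over all genes tested. By pair the list median was 0.46 and 0.55 in LSD1WT and 0.07 and 0.48 in LSD1cKO, so LSD1cKO pair 1 moved least. Without LSD1WT pair 2, 11 of 29 list members were higher at that p (1.16% of all genes) and 1 was lower (0.652%).

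The other 2 EGR genes followed Egr1 at lower amplitude. Egr2 was at 1.58 to 7.89 CPM without and 9.08 to 11.8 CPM with ligature (log2 fold change 1.42 ± 0.35). Egr3 was at 1.99 to 5.65 CPM without and 5.93 to 14.2 CPM with ligature (1.49 ± 0.34). Dusp5, a nuclear phosphatase that removes the activating phosphates of ERK, was at 3.71 to 9.08 CPM without and 13.1 to 20.8 CPM with ligature (1.48 ± 0.31). Dusp2 and Dusp1, related phosphatases, had log2 fold changes of 0.58 ± 0.18 and 0.42 ± 0.19. Klf2 and Klf6, Krüppel-like transcription factors, were higher in every pair by 0.26 to 1.08 and by 0.34 to 0.40 on the log2 scale.

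AP-1 genes were less uniform. Fos was at 35.0 to 231 CPM in unligated and 76.0 to 340 CPM in ligated libraries and was higher in all 4 pairs, by 0.06 to 1.11. Jun, Junb, Jund and Fosl2 differed in sign between pairs, with joint log2 fold changes of 0.15 ± 0.16, 0.39 ± 0.21, -0.12 ± 0.16 and 0.22 ± 0.23. Fosl1, close to the detection floor at 0.038 to 0.756 CPM, had -1.28 ± 0.61. Atf3, Gadd45b, Ier3, Zfp36 and Myc, which respond early to stress or growth factors, had log2 fold changes of -0.15, -0.25, 0.33, -0.11 and -0.41, each smaller than 2 SE.

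**Figure D2:**
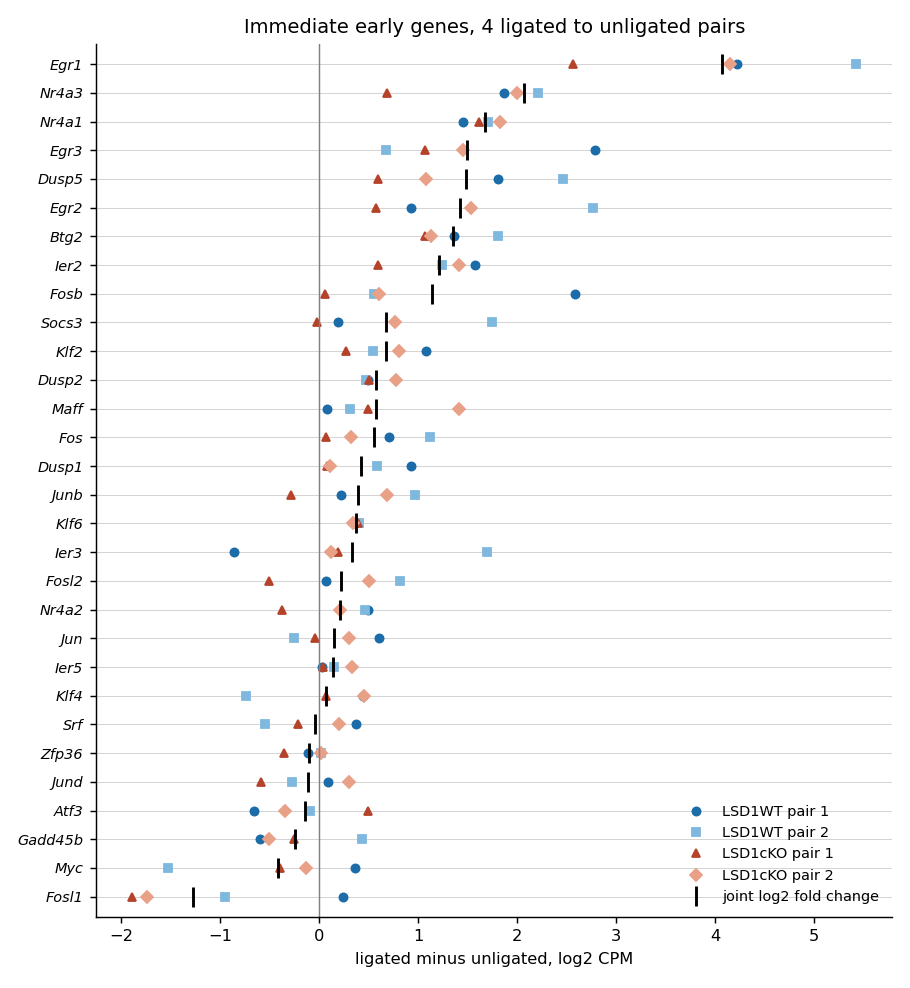
Ligated minus unligated log2 CPM for the 30 immediate early genes (vertical axis, ordered by the joint log2 fold change) in each of the 4 pairs, with black ticks for the joint log2 fold change. From Fos upwards most genes had 4 points right of zero, with Socs3 crossing it, whereas Jun, Atf3 and Myc had points on both sides.

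Upstream sequence of 3 of these genes is shown because they were higher in all 4 pairs and hold elements that early response genes are known for. These are the cAMP response element TGACGTCA and its core TGACG, and the CArG box bound by serum response factor. The 180 bases before the annotated start come from RefSeq (GRCm38.p6), on the gene's strand, with matches in capitals. Nr4a1 is at chr15:101266666-101266845 on the plus strand, Btg2 at chr1:134079156-134079335 on the minus strand and Dusp5 at chr19:53528965-53529144 on the plus strand.
Nr4a1: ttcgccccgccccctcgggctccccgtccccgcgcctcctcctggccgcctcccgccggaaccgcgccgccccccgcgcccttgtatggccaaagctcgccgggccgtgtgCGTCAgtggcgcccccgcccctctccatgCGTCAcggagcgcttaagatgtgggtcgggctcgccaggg
Btg2: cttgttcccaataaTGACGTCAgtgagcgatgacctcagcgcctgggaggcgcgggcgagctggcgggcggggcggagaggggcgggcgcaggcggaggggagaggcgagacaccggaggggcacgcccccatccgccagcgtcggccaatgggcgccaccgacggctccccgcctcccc
Dusp5: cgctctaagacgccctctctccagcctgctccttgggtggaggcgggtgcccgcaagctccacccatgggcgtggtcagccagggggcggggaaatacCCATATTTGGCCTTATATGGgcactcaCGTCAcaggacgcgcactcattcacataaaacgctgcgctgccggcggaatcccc
In Nr4a1 the core was found on the opposite strand at 2 places of the printed stretch, in Btg2 the full element lies 166 to 159 bases before the start, and Dusp5 has 2 adjoining CArG boxes and 1 core on the opposite strand. Both strands of the 250 bases before each start were searched, and TGACGTCA holds TGACG. Of 27025 genes with an entry, 19.8% held TGACG, 1.77% held TGACGTCA and 1.62% a CArG box. Of the 25 immediate early genes with an entry, 15 held TGACG, 3 held TGACGTCA and 4 a CArG box. Those with TGACG included Nr4a1, Btg2 and Dusp5, but also Atf3, Klf4 and Srf, with joint log2 fold changes of -0.15, 0.06 and -0.05. Egr1 and Ier2 were in none of these counts of matches. A match describes these letters only.

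The mandible cultures, all from ligated mice (3 of them by their numbers also donors of a femur library), were set beside the femur for the same genes. On a scale set over all 12 libraries, Egr1 was at 2.72 to 3.63 CPM in the 4 mandible libraries, within the range of the unligated femur (1.66 to 7.41 CPM) and below every ligated femur library (44.3 to 122 CPM). Ier2 was at 25.3 to 26.8 CPM in the mandible, against 17.4 to 31.3 CPM in unligated and 46.5 to 79.4 CPM in ligated femur cultures. Btg2, at 1.80 to 4.23 CPM, lay below every femur library, and Egr3, at 1.22 to 3.99 CPM, below every ligated one. Dusp5, Fos and Fosl1 lay above all unligated femur libraries in all 4 mandible libraries. The share of all genes that did so was not counted. Dusp5 was at 11.2 to 16.0 CPM in the mandible, 3.78 to 9.27 CPM in the unligated and 13.4 to 21.2 CPM in the ligated femur. Fos was at 255 to 282 CPM, against 35.9 to 235 CPM and 77.5 to 346 CPM. Fosl1, at 1.55 to 4.79 CPM, lay above the unligated (0.344 to 0.770 CPM) and the ligated femur (0.0389 to 0.420 CPM). No unligated mandible library was among those compared, and site and ligature therefore cannot be told apart for the mandible. The LSD1WT mandible library 3 is a mandible by its title and a femur by its library name. It had Egr1 at 3.56 CPM and Ier2 at 26.8 CPM. If it is a femur library, a ligated femur culture lay within the unligated femur range for both genes.

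MHC class II genes were higher in ligated cultures, most clearly in 3 of 4 pairs. H2-Ab1, a beta chain of the classical molecule, was at 67.7 and 20.7 CPM in unligated and 76.9 and 55.0 CPM in ligated LSD1WT. In LSD1cKO it was at 79.5 and 53.6 CPM without and 197 and 184 CPM with ligature. LSD1WT pair 1 hardly differed (0.18 on the log2 scale) and the other pairs differed by 1.31 to 1.78, so the groups overlapped through LSD1WT. The log2 fold change was 1.17 ± 0.25 with an edgeR adjusted p of 0.862, and its adjusted p over 17 alternatives ran from 0.0139 (DESeq2) to 1.

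H2-Aa and H2-Eb1, the partner alpha chain and the second beta chain, had log2 fold changes of 1.11 ± 0.25 and 1.01 ± 0.22. Ciita, the master coactivator, was at 8.55 and 3.08 CPM in unligated and 10.1 and 7.34 CPM in ligated LSD1WT, and was higher in all 4 pairs, by 0.24 to 1.47 on the log2 scale (joint log2 fold change 0.97 ± 0.22). Cd74, the invariant chain that guides class II molecules through the cell, had 0.72 ± 0.22. H2-DMa and H2-DMb1, which load peptide, had 0.66 ± 0.21 and 0.62 ± 0.16. Of the 10 class II genes tested, 7 were higher at an unadjusted p under 0.05 (2.27% of all genes), 0 were lower (2.32%), and 7 were higher in all 4 pairs (5.87%). The list median was 0.72, with 0.14 and 1.09 in the LSD1WT pairs and 0.98 and 1.23 in the LSD1cKO pairs. It was 0.60 without LSD1WT pair 2 and 0.91 without the unligated library of LSD1WT pair 1, with 7 of 10 higher at that p in each case (1.16% and 6.56% of all genes).

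Markers of dendritic cells and of monocytes and macrophages also had positive joint medians, but their medians in LSD1WT pair 1 were negative. Of 10 dendritic cell markers tested, all 10 had a positive joint log2 fold change (median 0.51) and 2, Cd209a and Flt3, were higher at an unadjusted p under 0.05 (2.27% of all genes). In LSD1WT pair 1 their median was -0.05, with 5 of 10 higher, and in the other pairs it was 0.63 to 0.69. The joint median was 0.30 without LSD1WT pair 2. Their summed level over 11 markers was 113 to 268 CPM in unligated and 109 to 355 CPM in ligated libraries. Clec9a, a defining marker of one dendritic subset, was at 0.0809 to 1.12 CPM over the 8 libraries. Of 20 monocyte and macrophage genes, 15 had a positive and 5 a negative joint log2 fold change (median 0.19). By pair their median was -0.52 and 0.43 in LSD1WT and 0.48 and 0.43 in LSD1cKO. Ccr2, the chemokine receptor of inflammatory monocytes, and Lyz1 were higher at that p. Ccr2 was at 52.9 and 88.7 CPM in unligated and 37.9 and 244 CPM in ligated LSD1WT, and at 104 and 68.5 CPM without and 233 and 222 CPM with ligature in LSD1cKO. The part of these markers in the class II result was not tested. In bulk RNA, more cells of a type and more RNA per cell cannot be told apart.

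**Figure D3:**
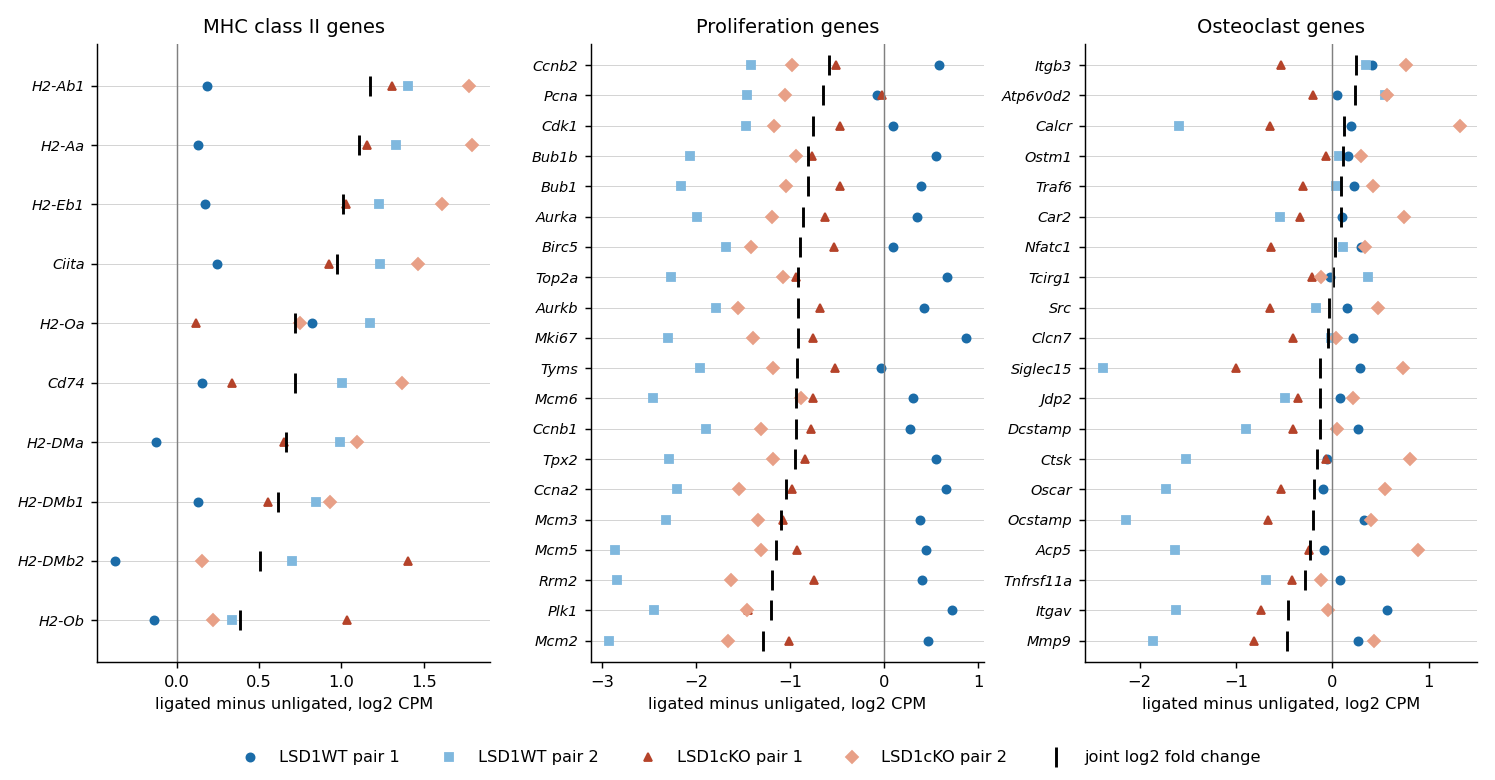
Ligated minus unligated log2 CPM of the members of 3 lists in each of the 4 pairs, ordered by the joint log2 fold change (black ticks). MHC class II genes lay mostly right of zero in all pairs, proliferation genes lay left of zero in 3 pairs with LSD1WT pair 1 mostly right of it, and osteoclast genes had pairs on both sides.

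Upstream sequence of 3 class II genes is shown since these genes moved together and share a CCAAT element near the start, a known part of class II promoters. The sequences are again the 180 bases before the start from RefSeq (GRCm38.p6), on the gene's strand, with CCAAT or its reverse complement ATTGG and TGACGTCA in capitals. H2-Aa is at chr17:34287824-34288003 on the minus strand, H2-Eb1 at chr17:34305687-34305866 on the plus strand and H2-DMb1 at chr17:34153011-34153190 on the plus strand.
H2-Aa: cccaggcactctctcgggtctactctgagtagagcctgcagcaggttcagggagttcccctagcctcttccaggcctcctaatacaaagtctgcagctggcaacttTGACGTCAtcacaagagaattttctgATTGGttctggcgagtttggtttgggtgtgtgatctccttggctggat
H2-Eb1: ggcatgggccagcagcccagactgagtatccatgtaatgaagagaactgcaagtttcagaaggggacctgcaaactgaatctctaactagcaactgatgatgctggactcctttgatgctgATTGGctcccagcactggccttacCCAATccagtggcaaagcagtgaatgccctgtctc
H2-DMb1: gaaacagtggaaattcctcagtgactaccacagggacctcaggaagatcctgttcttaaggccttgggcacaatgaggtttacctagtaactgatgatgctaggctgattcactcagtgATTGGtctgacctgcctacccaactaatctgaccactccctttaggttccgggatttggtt
CCAAT was found in 7 of the 7 class II genes with an entry and in 37.5% of all genes with one, over the 250 bases before the start and both strands. It was also found in 15 of 17 proliferation genes with an entry, which lay in the opposite direction.

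Some inflammatory transcripts were higher in all 4 pairs, while the medians of their lists differed in sign between pairs. Il1b, the precursor of interleukin-1 beta, was at 0.525 and 0.526 CPM in unligated and 1.59 and 16.2 CPM in ligated LSD1WT, and at 0.175 and 0.864 CPM without and 2.28 and 3.18 CPM with ligature in LSD1cKO. The unligated levels were close to the detection floor, with a lowest count of 5. All 4 ligated libraries lay above all 4 unligated ones, and LSD1WT pair 2 had the widest step. The log2 fold change was 2.97 ± 0.58 (edgeR adjusted p = 0.862), and 2.27 without that pair. Nlrp3, the sensor of the inflammasome that matures interleukin-1 beta, was at 13.5 and 124 CPM in unligated and 19.1 and 173 CPM in ligated LSD1WT. In LSD1cKO it was at 35.0 and 37.4 CPM without and 52.8 and 52.5 CPM with ligature. Its step was small but even, from 0.47 to 0.59 per pair, with a log2 fold change of 0.51 ± 0.11 (edgeR adjusted p = 0.862), and 0.53 without LSD1WT pair 2.

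Of 20 cytokine and chemokine genes tested out of 28 listed, 5 were higher at an unadjusted p under 0.05 (2.27% of all genes), namely Il1b, Cxcl2, Cxcl9, Ccl22 and Ptgs2, the prostaglandin-forming cyclooxygenase, and 0 were lower. Cxcl9, Ccl22 and Ptgs2 were at no more than 4.21 CPM in any library. Tnf, at 4.75 to 16.7 CPM without and 4.76 to 17.8 CPM with ligature, had -0.17 ± 0.25, and Ccl2 had -0.12 ± 0.35. Il6, Il1a and Csf3 were under the filter. Of the 20 tested, 14 had a positive joint log2 fold change (median 0.21). By pair the median was -0.20 and 0.66 in LSD1WT and 0.58 and -0.01 in LSD1cKO. Of 15 inflammasome and itaconate genes, 3 (Nlrp3 and the interleukin-1 receptors Il1r1 and Il1r2) were higher at that p. Their joint median was 0.19, and by pair -0.18 and 0.47 in LSD1WT and 0.43 and 0.10 in LSD1cKO. Casp1, Pycard and Acod1, the enzyme that makes itaconate, had 0.22 ± 0.17, 0.06 ± 0.17 and 0.04 ± 0.38. Of 21 NF-kappaB pathway genes, 1 (Birc3, 0.62 ± 0.26) was higher at that p. Without LSD1WT pair 2, 4 of 22 cytokine, 2 of 15 inflammasome and 0 of 21 NF-kappaB genes were higher at that p (1.16% of all genes). The joint medians of these lists were then 0.03, 0.11 and 0.01.

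Proliferation genes were lower in 3 pairs and higher in LSD1WT pair 1. Over the 20 genes the median log2 fold change was -0.92, with 15 lower (2.32% of all genes) and 0 higher at an unadjusted p under 0.05. By pair the median was 0.41 and -2.18 in LSD1WT and -0.76 and -1.25 in LSD1cKO. Birc5, an inhibitor of apoptosis made in dividing cells, was at 27.6 and 81.2 CPM in unligated and 29.3 and 25.3 CPM in ligated LSD1WT. In LSD1cKO it was at 24.2 and 76.6 CPM without and 16.7 and 28.6 CPM with ligature. The unligated libraries numbered 2 were high in both genotypes, and the 4 ligated libraries lay close together. Mki67, the proliferation antigen, was at 104 and 569 CPM in unligated and 190 and 116 CPM in ligated LSD1WT, and at 171 and 211 CPM without and 101 and 79.8 CPM with ligature in LSD1cKO.

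Plk1, the mitotic kinase, was lower by 1.45 and 1.46 on the log2 scale in the LSD1cKO pairs, and Mcm2, a subunit of the replicative helicase, had a joint log2 fold change of -1.28 ± 0.48. Without LSD1WT pair 2 the list median was -0.54 and 5 of 20 were lower at an unadjusted p under 0.05 (0.652% of all genes). Without the unligated library of LSD1WT pair 1 it was -1.35 and 20 of 20 were lower (7.85% of all genes), so the size and the count rested on which LSD1WT pair was in the comparison. Cholesterol synthesis genes were likewise higher in LSD1WT pair 1 and lower in the other pairs by their medians. All 23 had a negative joint log2 fold change (median -0.25) and 0 passed an unadjusted p of 0.05, with pair medians of 0.25 and -0.67 in LSD1WT and -0.30 and -0.28 in LSD1cKO.

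Interferon response genes split the LSD1WT pairs. Their median over 38 genes was -0.91 in LSD1WT pair 1 and 0.88 in pair 2, and 0.72 in both LSD1cKO pairs. In LSD1WT pair 1, 0 of 38 were higher in the ligated library, and in the other pairs 36, 38 and 36 of 38 were. Ifit1, an antiviral RNA-binding protein, was at 16.8 and 10.8 CPM in unligated and 6.98 and 52.8 CPM in ligated LSD1WT, and at 93.2 and 67.5 CPM without and 156 and 207 CPM with ligature in LSD1cKO. The joint log2 fold change was 0.91 ± 0.51. Ifit2 and Ifit3 had 0.95 ± 0.43 and 0.93 ± 0.46, and Oasl2 0.14 ± 0.26. Jointly, 0 of 38 passed an unadjusted p of 0.05 and the median was 0.43. It was 0.30 without LSD1WT pair 2, again with 0 of 38, while without the unligated library of LSD1WT pair 1, 34 of 38 were higher at that p (6.56% of all genes).

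**Figure D4:**
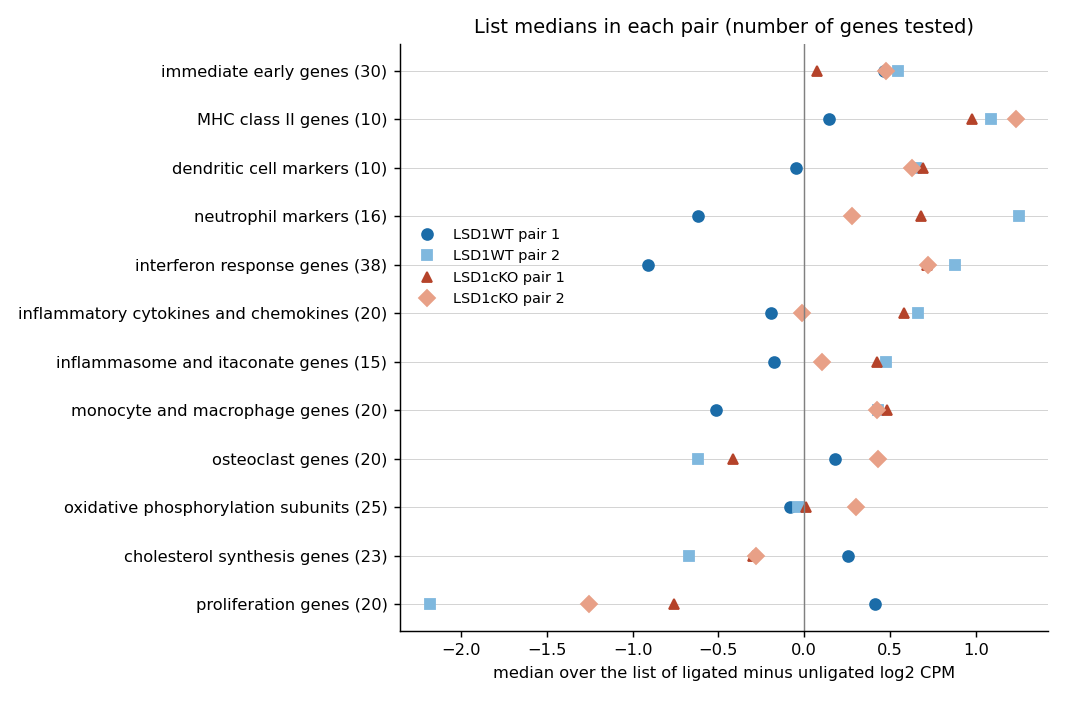
Median ligated minus unligated log2 CPM over 12 gene lists (vertical axis, number of genes tested in brackets) in each of the 4 pairs. Immediate early and MHC class II genes had a positive median in all 4 pairs. For dendritic, neutrophil, interferon, inflammasome, monocyte, cholesterol synthesis and proliferation lists, LSD1WT pair 1 had the opposite sign to the other 3.

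Osteoclast genes showed no common direction with ligature. Of 20 tested, 0 passed an unadjusted p of 0.05, the median log2 fold change was -0.09, with pair medians of 0.18 and -0.62 (LSD1WT) or -0.42 and 0.43 (LSD1cKO). Leaving out LSD1WT pair 2 also gave 0 of 20. Nfatc1, the master transcription factor of osteoclasts, was at 796 and 92.1 CPM in unligated and 980 and 99.7 CPM in ligated LSD1WT, and at 743 and 343 CPM without and 479 and 433 CPM with ligature in LSD1cKO (0.03 ± 0.19). Dcstamp, needed for cell fusion, had -0.13 ± 0.19, the phosphatase gene Acp5 -0.23 ± 0.38 and Ctsk -0.16 ± 0.35. Among 14 repressors of osteoclast differentiation, Arid5a was higher (0.78 ± 0.21) and Id2 lower (-0.38 ± 0.14) at an unadjusted p under 0.05, each in all 4 pairs. Hif1a, a hypoxia factor, had 0.08 ± 0.11.

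Other lists held few members past an unadjusted p of 0.05, which 2.27% of all genes passed as higher and 2.32% as lower. Of 25 glycolysis and hypoxia genes, Vegfa and Ndrg1 were higher (median -0.07), and of 25 oxidative phosphorylation subunits none passed (median 0.02). Of 14 LXR and cholesterol efflux genes, the exporter Abca1 was higher and the desaturase Scd1 lower (median -0.19), and of 9 lipid transport and oxidation genes of the study none passed (median 0.21). Of 16 M2-like macrophage and scavenger genes, Cd209a, Mgl2 and Clec10a were higher and Folr2 lower (median 0.04). Heat shock genes (15, median -0.06) had Hsf1 lower, and 18 stress and unfolded protein response genes (median 0.07) had Herpud1 higher. Among 15 glucocorticoid response genes (median 0.31) Per1 and Il1r2 were higher, and among 15 circadian clock genes (median 0.13) Per1 alone. Among 19 matrix remodelling genes (median 0.16) Thbs1, a secreted matrix protein, was higher, at 19.1 and 81.5 CPM in unligated and 19.5 and 622 CPM in ligated LSD1WT (1.55 ± 0.44). None of 14 LSD1 and CoREST complex genes passed (median 0.05).

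Markers of further cell types and signs of RNA quality were measured in the same way. Of 16 neutrophil markers, 3 (Ngp, Ltf and Retnlg) were higher at an unadjusted p under 0.05, against 2.27% of all genes (2.32% lower). Their median was 0.49 jointly, -0.62 and 1.25 in the LSD1WT pairs and 0.68 and 0.28 in the LSD1cKO pairs. It was 0.14 without LSD1WT pair 2, with 0 of 16 higher at that p, and the list's summed level was 187 to 286 CPM in unligated and 138 to 488 CPM in ligated libraries. The medians were 0.08 for 7 B cell markers (Cd79a lower), 0.10 for 4 T and NK cell markers (Cd4 higher), 0.41 for 2 erythroid, 0.05 for 3 mast cell, -0.03 for 3 eosinophil (Prg2 higher), 0.47 for 7 megakaryocyte, -0.36 for 11 stromal and -0.05 for 8 stem cell markers (Cd34 lower). Alas2, Car1, Slc4a1 and Hba-a2 of the erythroid list had 0 counts in all 8 libraries. Among 16 signs of RNA quality (median -0.03), the nuclear RNAs Malat1 and Rn7sk were higher in all 4 pairs. Malat1 was at 80.2 to 240 CPM without and 172 to 825 CPM with ligature (1.19 ± 0.34). The part of these values in the immediate early result was not tested.

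Beyond these lists, the joint comparison put 3 further genes among the 12 higher ones with the smallest p. Cd83, a surface marker of activated antigen-presenting cells, was at 6.19 to 45.9 CPM without and 9.78 to 144 CPM with ligature (1.08 ± 0.18). Pla2g7, a secreted phospholipase of macrophages, had 0.87 ± 0.19 and Zbtb20, a transcriptional repressor, 0.63 ± 0.13, and both were higher in all 4 pairs. Rnd3, an atypical small GTPase with one of the 5 smallest p in LSD1WT, had 0.90 ± 0.20. The edgeR adjusted p of all 4 was 0.862.

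The 12 lower genes with the smallest p were Tox2, Pidd1, Cxcl14, Tmc8, Mxd3, Mns1, Nsl1, Eef1a2, Nanos1, Cplane2, Scd1 and Trim59, with log2 fold changes from -1.97 to -0.64 and an edgeR adjusted p of 0.862 each. Nsl1, a kinetochore subunit, was at 5.74 and 18.7 CPM in unligated and 4.19 and 5.18 CPM in ligated LSD1WT, and at 4.75 and 13.4 CPM without and 3.54 and 3.96 CPM with ligature in LSD1cKO. Mxd3, a MYC-family partner of dividing cells, reached 6.80 CPM without and 2.41 CPM with ligature. In both, as in the proliferation genes, the unligated libraries numbered 2 were the high ones. Tox2 exceeded 0.3 CPM only in LSD1WT pair 2, at 16.6 CPM without and 3.77 CPM with ligature.

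The effect of ligature was then taken in each genotype. In LSD1WT 0 of 14933 genes passed an edgeR adjusted p of 0.05, 123 (0.824%) had an unadjusted p under 0.05, 74 of them higher (0.496%), and DESeq2 called 3 genes (Egr1, Dusp5 and Btg2). In LSD1cKO 0 passed in edgeR, 184 (1.23%) had an unadjusted p under 0.05, 128 of them higher (0.857%, or 166 higher and 37 lower with RLE scaling), and DESeq2 called Egr1. Egr1 had a log2 fold change of 4.81 ± 0.50 in LSD1WT and 3.36 ± 0.47 in LSD1cKO. Dusp5 had 2.15 ± 0.32 in LSD1WT and 0.84 ± 0.31 in LSD1cKO, and H2-Ab1 0.79 ± 0.32 in LSD1WT and 1.54 ± 0.32 in LSD1cKO. The immediate early median was 0.50 in LSD1WT and 0.23 in LSD1cKO, and the class II median 0.64 and 0.86. The interferon median was 0.06 in LSD1WT and 0.74 in LSD1cKO.

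Whether the genotypes differ was tested as an interaction, LSD1cKO minus LSD1WT. In edgeR 0 genes passed an adjusted p of 0.05, the smallest adjusted p was 1, and 69 (0.462%) had an unadjusted p under 0.05, with 42 (0.281%) above and 27 (0.181%) below zero, while DESeq2 called 0. For Egr1 the difference was -1.45 ± 0.63 (edgeR adjusted p = 1), and for Dusp5 -1.31 ± 0.44 (edgeR adjusted p = 1). The smallest unadjusted p belonged to mt-Co3, a mitochondrial subunit of cytochrome c oxidase. It was at 53.4 and 17.4 CPM in unligated and 118 and 45.4 CPM in ligated LSD1WT, and at 34.9 and 78.8 CPM without and 27.6 and 57.2 CPM with ligature in LSD1cKO, so the pairs of the genotypes went opposite ways. With 2 pairs per genotype, differences in Egr1 of this size could not be told from the spread between pairs.

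**Figure D5:**
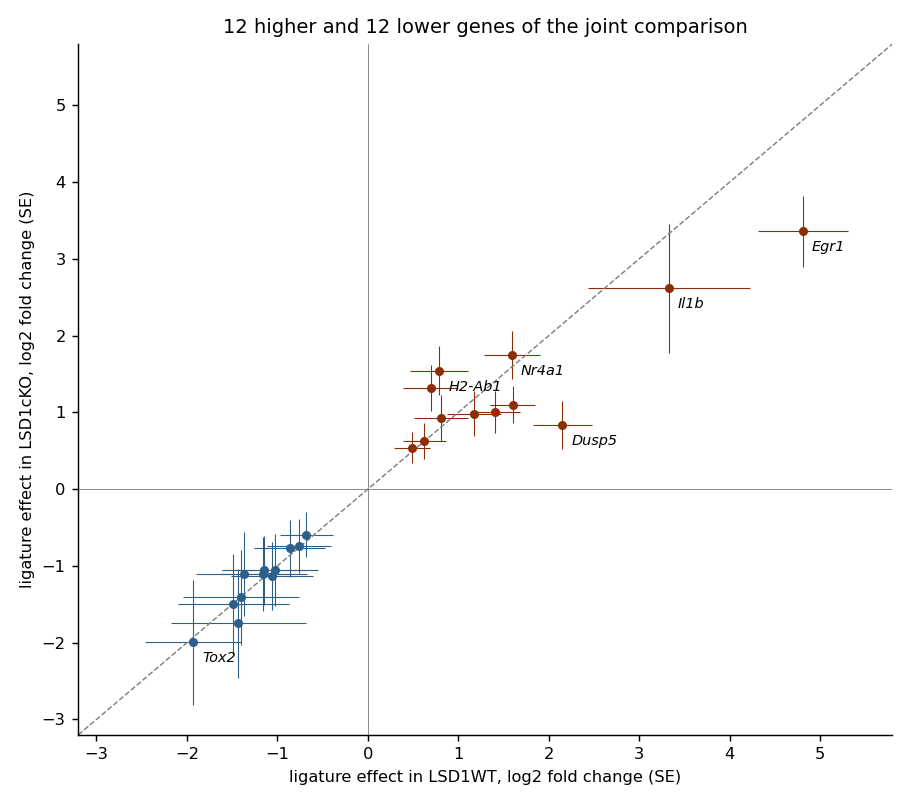
Ligature effect in LSD1cKO (vertical) against LSD1WT (horizontal), as log2 fold changes with SE bars, for the 12 higher (brown) and 12 lower (blue) genes of the joint comparison, with a dashed line where both are equal. These genes were chosen for one direction in all 4 pairs, so their place in these quadrants is fixed by that choice, and Egr1 lay at 4.81 in LSD1WT and 3.36 in LSD1cKO.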

How the data were processed

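RNA-seq gene counts of the 8 femur libraries were analysed, with the 4 mandible libraries used in one alternative and for levels. The authors deposited whole-number read counts for 57010 Ensembl mouse genes with no normalization. The submitters' processing notes name FastQC, HISAT2 2.1.0, featureCounts, edgeR and build GRCm39, and the annotation release and strand setting are not given in the sources used here, so overlapping and antisense genes cannot be told apart. Genes were kept with filterByExpr by condition (14933) and scaled with TMM in edgeR 4.0.16 (R 4.3.3). Log2 CPM used a prior count of 2. Quasi-likelihood models had genotype and replicate number within genotype as 4 blocks and 1 ligature term, or 1 per genotype, and p values were adjusted by Benjamini-Hochberg over all genes tested. Each SE is the log2 fold change, without its sign, divided by the square root of the quasi-likelihood F statistic. The code was tested on simulated data. Alternatives were DESeq2 1.42.0, RLE or upper-quartile scaling, other filters, no block, all 12 libraries, the relabelled mandible library as femur, and each library left out.

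Deviations from group means correlated at 0.791 in LSD1WT and 0.248 in LSD1cKO between same-numbered libraries. The block comes from the stated design of this comparison, and labels do not say that numbers mark a litter or day. One mandible LSD1WT library has a library name of a femur and was kept as mandible, as its title says. The genes named are Kdm1a and Lyz2, 12 higher and 12 lower genes with the smallest p and one sign in all 4 pairs, the 5 smallest p in each genotype and in their difference, the members of each list with an adjusted p under 0.05 or else up to 3 with the smallest p, and genes the study measured by qRT-PCR. Other list members, and genes called in alternatives, were named after their values were seen. Members and lists were chosen with earlier results of these data known. Of the list symbols, 6 were not found in the files. Each library comes from a single mouse, as labelled. With the block, p values measure how far the ligated minus unligated difference varies between pairs, not the spread between mice. A few values of single genes are not reported here. Promoter sequences are from RefSeq, GRCm38.p6, another build than the counts.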

Additional observations from a re-analysis of the deposited data

Results flagged for a closer look

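Of 133 values checked, 4 had one pair far from the other 3 in its ligated minus unligated log2 CPM. The values were those of genes named, plus total counts and mitochondrial shares in each ligature group. Chance flags about 1 in 20 where values are not chosen beforehand. Some of these genes were chosen for one sign in all 4 pairs, so that rate need not hold here. Herpud1, which helps degrade misfolded proteins, was at 1.15 in LSD1WT pair 2 and at 0.24 to 0.33 in the others. Cycs, cytochrome c, was at -1.11 in LSD1WT pair 2 and at -0.07 to 0.12 in the others. In LSD1WT pair 1, Plac8, a gene of immature monocytes and granulocytes, was at -1.37 against 1.34 to 1.71 in the other pairs. Epor, the erythropoietin receptor, was at -1.48 in that pair against 0.77 to 1.17, on a few counts in most libraries.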

How the results depend on the processing

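No gene passed an adjusted p of 0.05 in the joint comparison, in either genotype or in their difference with RLE or upper-quartile scaling, genes averaging 10 or more counts, a log2 fold change past 1 also required, no replicate block, or the mandible library taken as femur without a block. With no filter, which lets in genes with few counts, the counts were 8 (joint), 24 (LSD1WT), 85 (LSD1cKO) and 2 (difference). The 8 joint genes were Egr1, Nr4a1, Btg2, Ier2, Il1b, Dusp5, Cd83 and H2-Ab1. All of them were also tested in the main fit, with nearly the same log2 fold changes (Egr1 at 4.07 in both), and called by DESeq2. With DESeq2 the counts were 17, 3 and 1, and 0 for the difference. With all 12 libraries 3 genes passed jointly. Without LSD1WT pair 2 they were 1, 5, 113 and 34. Leaving out single libraries gave 0 to 13 jointly, 0 to 766 in LSD1WT, 0 to 253 in LSD1cKO and 0 to 150 for the difference. The highest joint and LSD1WT counts came without the unligated LSD1WT library 1 (0 and 747 without its ligated partner), and the highest LSD1cKO and difference counts without the ligated LSD1WT library 2. In these fits a partner left alone adds nothing to the ligature estimate itself, but it still enters the filter and the scaling. The effect in the genotype that lost a library rests on 1 pair, assumed to vary like the others. The other genotype keeps both of its pairs. The cause of the larger counts was not tested.

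At an unadjusted p under 0.05, removing the replicate block moved the counts from 685 to 281 jointly, from 123 to 32 in LSD1WT, from 184 to 30 in LSD1cKO and from 69 to 15 for the difference. With 2 pairs per genotype the numbers are paired by design only. The joint count was 1315 with no filter, 1619 with all 12 libraries and 224 to 2256 with single libraries left out. Of 2204 log2 fold changes of named genes under alternatives, 2095 kept their sign and side of the threshold, 33 passed it and 76 changed sign, none of them a called one. Of 561 list medians, 538 moved by less than the SD between pairs. All alternatives kept the median of the immediate early list positive (0.28 to 0.57), as they did for class II genes (0.60 to 0.92). Each group had 4 libraries, and those of LSD1WT differed widely. In its main joint fit edgeR called none of the 17 genes that DESeq2 called on the same libraries. Why the 2 methods differed was not tested, and depth was not varied.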
